A study of Mus musculus with 4 samples.

Results

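Cell division is driven by cyclins, which switch on cyclin-dependent kinases, and is preceded by the licensing of replication origins, at which the origin recognition complex and Cdc6 load the MCM helicase onto DNA. Here the genes of these proteins were examined for sites of KAP1, the corepressor encoded by Trim28, in mouse regulatory T cells. KAP1 does not read DNA letters itself: zinc finger proteins with a KRAB domain carry it to their sites, where it recruits enzymes that methylate histone H3 at lysine 9. It has also been found at promoters of active genes. The set held 82 of the 20665 protein-coding genes on chromosomes 1 to 19, chosen by symbol alone. It comprised 9 cyclins of types A, B, D and E, 17 numbered Cdk genes, 9 Cdkn genes, 8 E2f genes, 6 Orc genes, 12 genes starting Mcm and 21 starting Cdc plus a number, without Cdkn1c and the Cdc42 group. Not all of them act in the cell cycle. Cdc37 encodes a cochaperone, Cdc40 and Cdc5l splicing factors, Cdc73 a subunit of the Paf1 complex and Cdk9 a kinase of RNA polymerase II.

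The data are chromatin immunoprecipitation and sequencing (ChIP-seq) of 2 samples, replicates 1 and 2, with the KAP1 antibody 1Tb-A9 of Active Motif. Both were regulatory T cells, the Foxp3-expressing CD4 cells that restrain immune responses, from spleen of C57BL/6 mice, which had been sorted and grown in culture for 2 weeks. The series also has 2 input samples without antibody, which were not analysed here. The labels give no genotype, treatment or age, and they do not say whether the samples came from separate animals or cultures, so spread between them may be technical. All samples belong to 1 cell type under 1 condition, hence the files allow no comparison between conditions and no test between groups.

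Each KAP1 sample has a list of summits, the bases of strongest enrichment within peaks, with 8862 in replicate 1 and 79515 in replicate 2, which is 8.97 times as many. Read depth is unknown. Each summit has a score by the authors, on a −log10 scale, used here within its own list. Where 2 scores are given for 1 shared summit, the first is that of replicate 1 and the second that of replicate 2. A summit was called shared when a replicate 2 summit lay within 200 bp of a replicate 1 summit. It was at an end of a gene when within 1 kb of its lowest or highest coordinate, and in the body when inside the rest of the gene. Positions are 1-based on mm10. Summits show antibody enrichment and not RNA. Shared summits lay within 20 kb of 4 of 4 regulatory T cell genes (Foxp3, Il2ra, Ctla4, Ikzf2) and 3 of 3 T cell genes (Cd3e, Cd4, Cd28). They also lay within 20 kb of 2 of 3 B cell, 1 of 3 myeloid and 0 of 2 erythroid genes. Over all coding genes on chromosomes 1 to 19 the share was 34.3%, and no cell type was inferred from these short lists.

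E2F factors act at the promoters of many of these genes, and the CHR element and the CCAAT box are also common in promoters of genes used in dividing cells. Promoter sequences from RefSeq (GRCm38.p6) were found for 69 of the 82 genes. The first 3 promoters shown had a shared KAP1 summit inside the printed stretch, so they place the summit within the sequence. The 250 bases before the annotated start are given 5′ to 3′, and capitals mark the E2F letters TTTCCCGC, TTTGGCGC or TTTCGCGC, the CHR letters TTTGAA or the CCAAT letters on either strand. The Mcm2 stretch is chr6:88898781-88899030, minus strand, and its summit lay 217 bp before the start. The Orc2 stretch is chr1:58505110-58505359, minus strand, with the summit 219 bp before the start. The E2f8 stretch is chr7:48881597-48881846, minus strand, with the summit 196 bp before the start.
Mcm2: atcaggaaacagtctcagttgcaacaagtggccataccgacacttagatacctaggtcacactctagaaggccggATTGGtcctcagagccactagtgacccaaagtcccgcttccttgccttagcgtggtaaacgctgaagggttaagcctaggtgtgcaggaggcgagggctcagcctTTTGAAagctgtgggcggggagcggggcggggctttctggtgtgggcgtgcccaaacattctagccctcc
Orc2: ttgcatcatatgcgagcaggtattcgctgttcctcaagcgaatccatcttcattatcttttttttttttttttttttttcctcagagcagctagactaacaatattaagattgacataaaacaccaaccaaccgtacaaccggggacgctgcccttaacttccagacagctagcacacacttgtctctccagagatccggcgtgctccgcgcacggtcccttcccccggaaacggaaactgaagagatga
E2f8: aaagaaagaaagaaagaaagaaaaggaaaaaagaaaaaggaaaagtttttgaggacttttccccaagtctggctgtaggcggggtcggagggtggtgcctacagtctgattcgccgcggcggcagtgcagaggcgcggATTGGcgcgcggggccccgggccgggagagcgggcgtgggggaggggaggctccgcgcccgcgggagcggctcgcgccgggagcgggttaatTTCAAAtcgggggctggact

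None of these stretches held the E2F letters. Mcm2 had CHR letters 70 bases before its start and reversed CCAAT letters 175 bases before it, and E2f8 had the same elements 20 and 112 bases before its start. Orc2 held no capitals, since its reversed CCAAT letters lay 20 bases past the start and are not printed. The next 3 promoters had E2F letters and a shared summit farther upstream. These are Cdc25a (chr9:109875329-109875578, plus strand), Cdc6 (chr11:98907901-98908150, plus strand) and Mcm7 (chr5:138171884-138172133, minus strand), with summits 331, 385 and 505 bp before the start. The last is Mcm6 (chr1:128359706-128359955, minus strand), which had 3 matches to the E2F letters, 2 of them overlapping, and no shared summit within 20 kb.
Cdc25a: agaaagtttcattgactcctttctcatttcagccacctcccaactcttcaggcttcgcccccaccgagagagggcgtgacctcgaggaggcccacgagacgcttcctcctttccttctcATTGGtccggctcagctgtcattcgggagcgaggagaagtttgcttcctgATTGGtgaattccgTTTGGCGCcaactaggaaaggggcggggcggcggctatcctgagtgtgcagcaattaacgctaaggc
Cdc6: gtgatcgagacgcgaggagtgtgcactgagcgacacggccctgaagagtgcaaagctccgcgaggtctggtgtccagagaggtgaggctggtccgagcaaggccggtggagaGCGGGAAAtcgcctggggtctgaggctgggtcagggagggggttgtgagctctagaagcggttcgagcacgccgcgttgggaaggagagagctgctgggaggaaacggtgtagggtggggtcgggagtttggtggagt
Mcm7: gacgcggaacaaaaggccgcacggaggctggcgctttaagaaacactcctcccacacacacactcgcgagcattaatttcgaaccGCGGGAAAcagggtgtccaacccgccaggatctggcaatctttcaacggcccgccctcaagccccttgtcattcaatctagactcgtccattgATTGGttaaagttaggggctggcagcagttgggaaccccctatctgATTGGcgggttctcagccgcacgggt
Mcm6: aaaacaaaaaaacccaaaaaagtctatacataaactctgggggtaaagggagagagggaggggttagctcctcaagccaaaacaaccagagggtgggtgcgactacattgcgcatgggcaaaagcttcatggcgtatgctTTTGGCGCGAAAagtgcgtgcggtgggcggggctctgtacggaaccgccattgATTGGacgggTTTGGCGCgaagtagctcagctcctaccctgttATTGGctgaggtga

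Promoter letters were then counted in windows from 250 bases before to 50 after the outermost start of each gene. E2F letters were found in 16 of 69 members (23.2%), against 2.54% of 16457 coding genes. A shared summit lay within 1 kb of an annotated start in 15 of the 69 members (21.7%, against 8.57% of all coding genes). E2F letters occurred in 5 of these 15 (Cdc25a, Cdc6, E2f2, Mcm7, Mcmbp) and in 11 of the other 54 (20.4%). Those 11 were Cdk1, Cdk2, Cdkn2a, E2f3, E2f7, Mcm3, Mcm5, Mcm6, Mcm8, Orc1 and Orc3. By family, 6 of 10 Mcm, 3 of 6 E2f, 2 of 6 Orc, 2 of 14 Cdk, 1 of 9 Cdkn, 2 of 19 Cdc and 0 of 5 cyclin promoters had them. CHR letters were found in 13 of 69 members (18.8%, against 15.9% of all) and CCAAT letters in 36 (52.2%, against 39.1%). Members with and without a shared summit at the start had CCAAT letters in 53.3% and 51.9% of windows. CHR letters stood in 13.3% and 20.4% of them, and in 13.6% and 16.1% of the same groups of all coding genes. The windows of members were richer in G and C, with a median of 62.3% against 56.7% over all coding genes. Over all coding genes, the median was 60.0% with and 56.3% without a shared summit within 1 kb of a start. The part of base composition in the counts of summits was not tested.

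**Figure D1:**
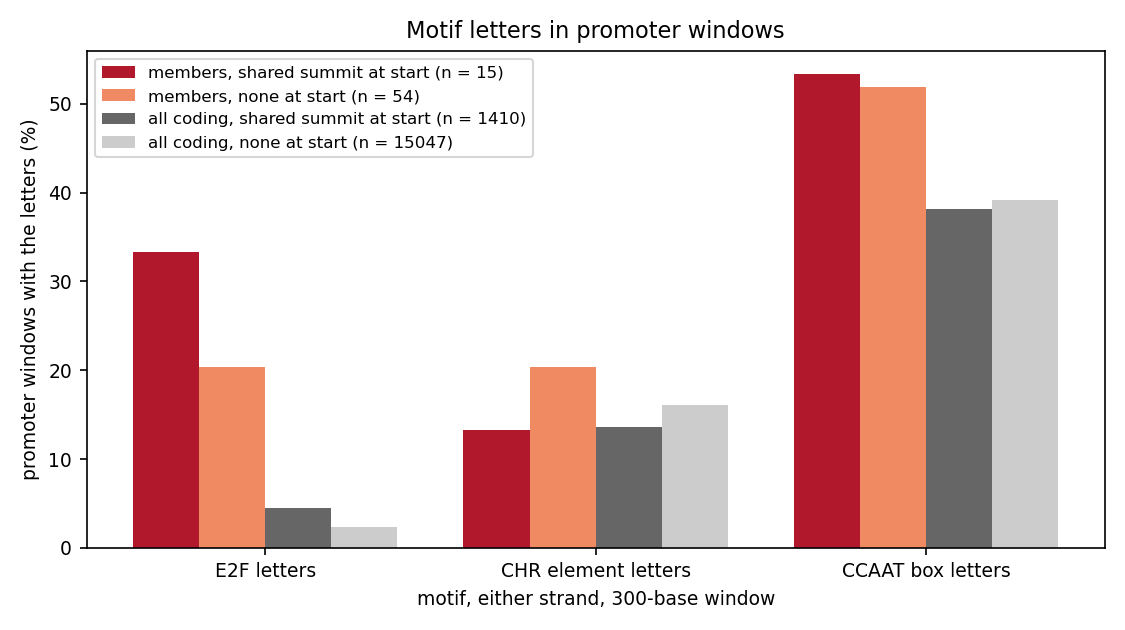
Percentage of 300-base promoter windows (y axis) with the E2F, CHR or CCAAT letters on either strand (x axis), for members and all coding genes with and without a shared KAP1 summit within 1 kb of a start. E2F letters stood in 33.3% and 20.4% of the 2 groups of members, against 4.47% and 2.36% of the groups of all coding genes.

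A shared summit lay at an end of 19 of the 82 members (23.2%), against 8.94% of all 20665 coding genes on the same chromosomes. In gene bodies there was one for 15 members (18.3%), against 12.9% of the 18374 coding genes long enough to have a body. That is the base of all shares given here for body summits alone. Within 20 kb there was one for 40 members (48.8%, against 34.3% of all coding genes). The median gene length was 20136.5 bp among members and 17491 bp among all, and all members were long enough to have a body. With replicate 1 alone, 22 members had an end summit (26.8%, against 9.84%). With replicate 2 alone, the number was 34 (41.5%, against 23.2%), body summits were found in 56 (68.3%, against 56.4%) and summits within 20 kb in 81 (98.8%, against 84.3%). The 1 member without a replicate 2 summit within 20 kb was Ccna2. In 8 members a shared summit lay both at an end and in the body (9.76%, against 1.77% of all 20665), namely Cdc25a, Cdc6, Cdk17, E2f2, Mcm2, Mcm3ap, Mcm7 and Mcmbp. All these are shares of genes in 2 libraries, and the genes are not replicates.

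**Figure D2:**
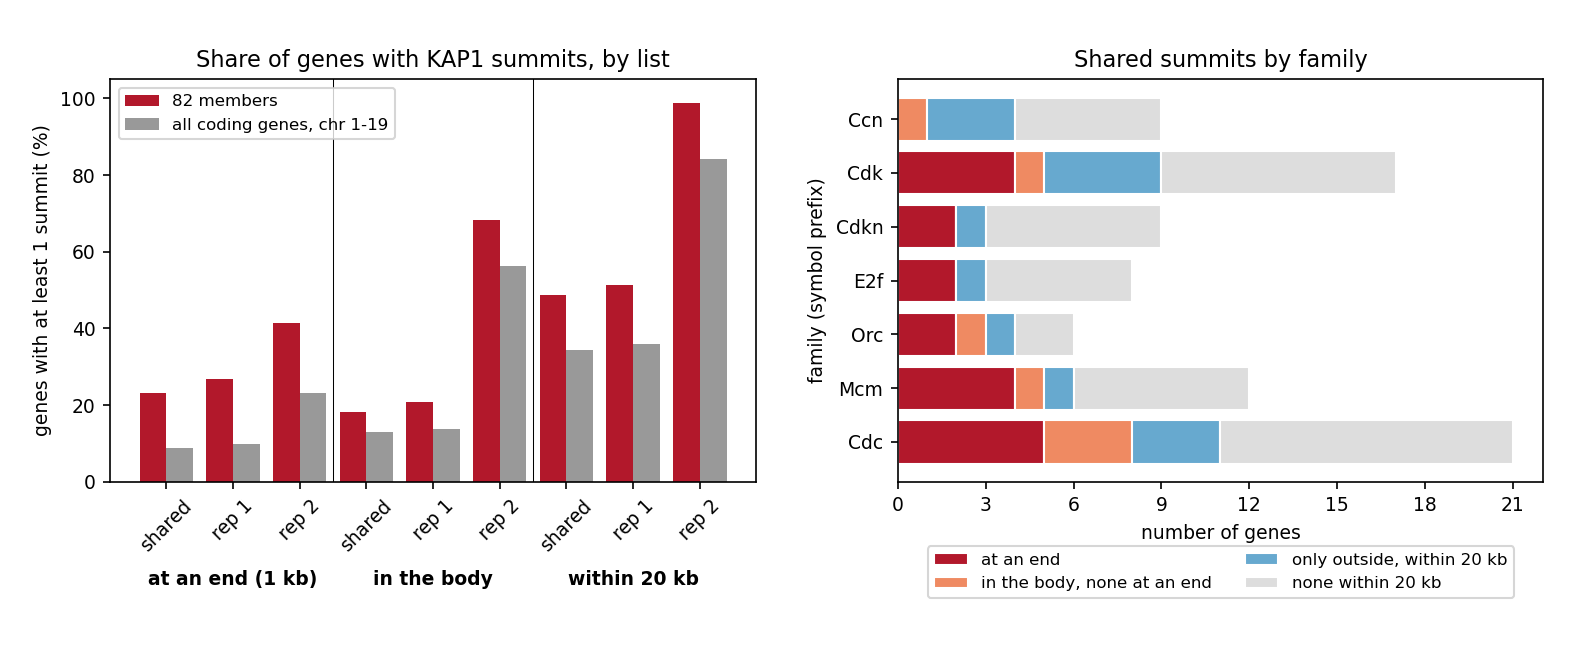
Left, percentage of genes (y axis) with at least 1 KAP1 summit at an end, in the body or within 20 kb, for shared summits and each replicate's own list, in the 82 members and all coding genes. Right, number of genes (x axis) per family by the closest class of shared summit. The share of members was above that of all coding genes in each of the 9 pairs of bars, and the cyclin family (Ccn) had no shared end summit.

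Counts by family were small. End summits were found in 4 of 12 Mcm, 2 of 6 Orc, 2 of 8 E2f, 5 of 21 Cdc, 4 of 17 Cdk and 2 of 9 Cdkn genes, and in 0 of 9 cyclin genes, against 8.94% of all coding genes. With replicate 2 limited to its 8862 highest scores, as many as replicate 1 has, the end summits of Cdc6, Cdc34, Cdc123, Cdk5, Cdk12, Cdkn1a, Cdkn2aipnl, Mcm7 and Orc5 were no longer shared. Body summits were found in 5 of 12 Mcm genes, 5 of 21 Cdc, 2 of 17 Cdk and 1 of 6 Orc genes. They were also found in 1 of 8 E2f and 1 of 9 cyclin genes, and in 0 of 9 Cdkn genes. The median length of the Cdkn genes was 5881 bp, and the part of length in the body counts was not tested. The share over coding genes with a body was 12.9%, near that of the Cdk, Orc, E2f and cyclin genes. The differences between families were not tested.

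The 20 end summits of members had a median score of 10.3 in replicate 1 and 16.6 in replicate 2, against 8.34 and 12.4 over all 7720 shared summits. Of the 20, 4 ranked in the top 10% of replicate 1 scores (against 891 of 7720 for all shared summits) and 11 in the top 10% of replicate 2 (against 3051 of 7720). The paired summits at member ends lay a median of 4.5 bp apart in the lists, with 3 on the same base. Where the strand was known, 16 of 18 end summits (88.9%) lay within 1 kb of an annotated start, against 79.9% of those of all coding genes. Of the 16, 11 were upstream of the start (68.8%, against 69.2%), and the median distance was 315.5 bp, against 276 bp.

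**Figure D3:**
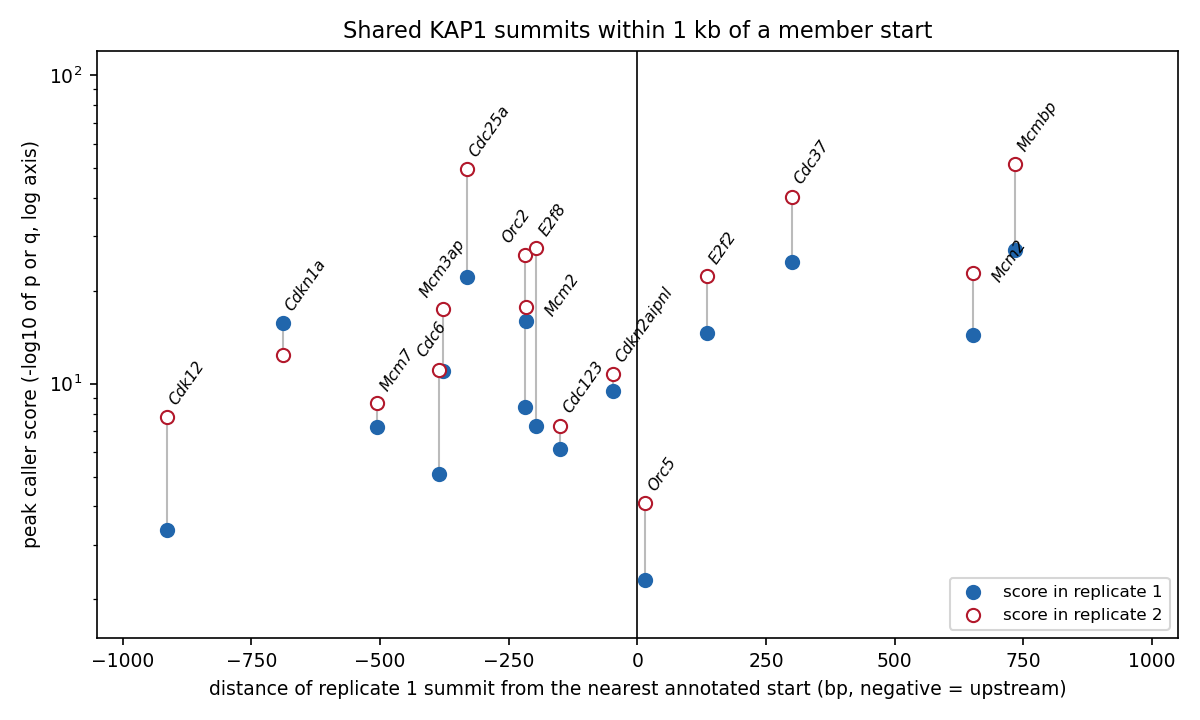
Shared KAP1 summits at member ends that lie within 1 kb of an annotated start, by distance from the start in bp (x axis, negative upstream) and score in each replicate (y axis, log scale, a line joins the 2 scores). They range from 914 bp upstream at Cdk12 to 734 bp downstream at Mcmbp, and Mcm2 appears on both sides of its start.

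Among cyclins, the activating subunits of the kinases, only Ccnd3 had a shared summit inside the gene. This is 1 of 9 (11.1%), against 12.9% of the coding genes long enough to have a body. Cyclin D3, with D1 and D2, pairs with Cdk4 and Cdk6 early in the cycle. Ccnd3 lies on chromosome 17, from the start at 47505051. The stronger of its 2 body summits, at position 47598276, had the highest replicate 1 score of all 76 shared summits around members (62.0, with 77.9 in replicate 2). It lay 1413 bp inside the far end of the gene and 4809 bp past an annotated start. The other, 22837 bp into the gene, scored 6.21 and 35.9. A further summit 1294 bp before the gene scored 5.10 and 9.51. The gene held 4 replicate 1 and 11 replicate 2 summits in its body. Ccnd1, Ccnd2 and Ccne1 had shared summits outside the gene only. The strongest, 15300 bp from Ccnd1 (18.1 and 27.4), lay 469 bp from LTO1. For Ccnd2 it lay 2634 bp beyond its higher end (17.0 and 28.9), with Ccnd2 as the nearest coding gene. Ccna1, Ccna2, Ccnb1, Ccnb2 and Ccne2 had none within 20 kb (5 of 9, against 13584 of all 20665 coding genes). Ccna2, a cyclin of S phase and mitosis, had 1 replicate 1 summit there, with a score of 1.48. Ccnd2 had an end summit in each list (3.21 in replicate 1 and 10.4 in replicate 2), but at opposite ends of the gene.

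Of the 4 kinases at the centre of the cycle, Cdk2 and Cdk6 had shared summits at an end or in the body. Over all 20665 coding genes, 3860 had one in either place. The Cdk2 summit, at position 128697264 of chromosome 10, scored 11.3 and 15.7. It was 674 bp past the end where transcription stops and 7787 bp from the start. That position is also inside Pmel and within 1 kb of an end of Rab5b. Cdk6 had a body summit deep in the gene (6.16 and 6.37), 116738 bp past its start. It was not shared with replicate 2 limited to the length of replicate 1. Cdk1 and Cdk4 had shared summits only outside. Those of Cdk4 numbered 4, and 3 of them lay inside or within 1 kb of Agap2. Replicate 2 alone had an end summit at Cdk1 (13.2) and Cdk4 (5.11).

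Cdk17, the gene of a PCTAIRE kinase outside the core cycle, carried the most shared summits of any member, 5 within 20 kb. At its lower end, 165 bp outside the gene (position 93160711 of chromosome 10), the scores were 44.1 and 82.7, the highest replicate 1 score of all member end summits. The 3 body summits lay at 1061, 10503 and 23103 bp from the nearer end, with replicate 1 scores of 22.5, 45.3 and 4.61 and replicate 2 scores of 21.95, 44.9 and 11.1. Cdk12, a kinase of the RNA polymerase II tail, had an end summit 42 bp outside the gene with 3.35 and 7.80. It had 17 replicate 2 summits within 20 kb, the highest number of any member, and 1 of replicate 1. Cdk5, a kinase best known from neurons, had a shared summit 142 bp outside its higher end (5.10 and 8.15), within 1 kb of an end of Slc4a2. Cdk9 had 4 shared summits within 20 kb, the strongest of which (32.8 and 40.5) lay inside Sh2d3c, and Cdk18 had 1. Of the 17 Cdk genes, 8 had no shared summit in that span, against 13584 of all 20665 coding genes. These were Cdk7, Cdk8, Cdk10, Cdk13, Cdk14, Cdk15, Cdk19 and Cdk20. Cdk14, at 576868 bp the longest member, had 15 replicate 2 summits and none of replicate 1.

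Of the 6 kinase inhibitor genes, 1 had a shared end summit and 2 had a shared summit within 20 kb (33.3%), against 8.94% and 34.3% of all coding genes. Cdkn1a, which encodes p21, the inhibitor induced by p53, had a shared summit 689 bp before its outer annotated start (15.7 and 12.4). The summit lay at position 29090290 of chromosome 17, on the same base in both lists. The gene also has an inner annotated start, at position 29093769. The Cdkn1a summit was not shared with replicate 2 limited to the length of replicate 1. That left 0 of the 6 with an end summit, against 4.02% of all coding genes. Cdkn1b, the gene of p27, had none at an end or in the body. It had 3 within 20 kb, at 1425 bp (4.17 and 5.24), 3204 bp (5.10 and 11.5) and 16878 bp (4.02 and 21.3) from the gene. The nearest coding gene to the last was Gpr19, at 5329 bp. The 4 INK4 genes Cdkn2a, Cdkn2b, Cdkn2c and Cdkn2d, whose products block Cdk4 and Cdk6, had no shared summit within 20 kb. Cdkn2a had a replicate 2 summit 427 bp before its outer annotated start (9.39). That start is at position 89294619 of chromosome 4, and an inner annotated start of Cdkn2a is at 89282192. Cdkn2b had a replicate 2 summit 477 bp before its start (6.42). Cdkn2aipnl, a relative of the Cdkn2aip gene and no kinase inhibitor, had a shared summit 48 bp before its start (9.50 and 10.7). Cdkn2aip had an end summit in replicate 1 alone (3.69), and Cdkn3, a phosphatase gene, had none shared.

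Of the E2F factors, which switch genes for S phase on or off, E2f2 and E2f8 had shared summits at their starts. E2f2, an activator, had 3 within 20 kb. That at its start (position 136172409 of chromosome 4, 135 bp downstream) scored 14.6 and 22.3, that in the body 14.4 and 28.9, and that 3992 bp past the gene 28.3 and 42.6. E2f8, an atypical repressor, had its summit at position 48881792 of chromosome 7. It scored near the replicate 1 median (7.27) but in the top 10% of replicate 2 (27.6, percentile 97.6). E2f5 had a shared summit 5409 bp outside (8.34 and 8.26), 462 bp from Rbis. The remaining members E2f1, E2f3, E2f4, E2f6 and E2f7 had none within 20 kb (5 of 8, against 13584 of all 20665 coding genes). E2f1 had a replicate 2 summit at its higher end (14.4).

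Of the 13 licensing genes (Orc1 to Orc6, Cdc6 and Mcm2 to Mcm7), 5 had a shared end summit (38.5%, against 8.94% of all coding genes), 4 a shared body summit (30.8%, against 12.9%) and 8 a shared summit within 20 kb (61.5%, against 34.3%). With replicate 2 limited to the length of replicate 1 the counts were 2, 2 and 4. Under that limit the shares of all coding genes were 4.02%, 6.37% and 18.7%, and Cdc6, Mcm7 and Orc5 had no shared end summit. Mcm2, a subunit of the helicase that licensing loads, had 3, and they lay on both sides of its start. The summit 217 bp upstream (position 88898997 of chromosome 6, printed stretch above) scored 15.9 and 17.7, and the summit 652 bp downstream scored 14.4 and 22.8. A stronger one, 2678 bp into the gene at position 88896102, scored 56.9 and 83.8. The latter had the highest replicate 2 score of all shared summits around members. Mcm7, another subunit, also had summits on both sides of its starts, at 505 bp upstream (7.25 and 8.66) and, counted in the body, 241 bp downstream of a start (4.17 and 6.09). Both lay within 1 kb of an end of Ap4m1, so their gene cannot be assigned. Mcm3 had 1 shared summit, 4814 bp before the gene (2.31 and 5.33). Mcm4, Mcm5 and Mcm6 had none within 20 kb, although Mcm5 had a weak replicate 2 summit at its start (3.65).

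Cdc6, the loader of the helicase, had a shared summit 57 bp inside its lower end, 385 bp before an annotated start on chromosome 11 (5.10 and 11.1). The 2 lists placed it 104 bp apart, and it was not shared at a distance of 50 bp. A body summit of Cdc6 scored 15.9 and 25.5. Orc2, a subunit of the origin recognition complex, had 3 shared summits within 20 kb. That at the start (position 58505328 of chromosome 1) scored 8.40 and 26.2, and that 2423 bp before the gene 19.2 and 20.9. Orc5 had a summit 15 bp past its start with scores among the lowest of both lists (2.31 and 4.10, percentiles 2.3 and 2.0). Orc4 had 1 in the body (7.25 and 13.3). Of 2 shared summits near Orc3, the stronger (17.9 and 35.9) lay 276 bp from Akirin2. Orc1 and Orc6 had none within 20 kb. The genes that act when origins fire had none either (0 of 3, Mcm10, Cdc7 and Cdc45), against 34.3% of all coding genes with one. All 3 had replicate 2 summits there.

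Of Mcm8, Mcm9, Mcmbp, Mcm3ap and Mcmdc2, which are not subunits of the licensing helicase, 2 had a shared end summit and 3 a shared body summit, against 8.94% and 12.9% of all coding genes. With replicate 2 limited as above, the counts were 2 and 0, against 4.02% and 6.37% of all coding genes. Mcmbp, whose product binds MCM complexes, had a summit 734 bp past its start at position 128739695 of chromosome 7, with 27.1 and 51.6, and a body summit with 5.10 and 10.6. Mcm3ap, a gene for an RNA export factor, had an end summit 378 bp before its start (11.02 and 17.42), inside Ybey and at one of its ends, and a body summit (11.9 and 13.3). Mcm9, a helicase gene for DNA repair, had 1 in its body (6.16 and 6.87), within 1 kb of an end of Asf1a. Mcm8 and Mcmdc2 had no shared summit within 20 kb.

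Among the phosphatases that remove inhibitory or activating phosphates in the cycle, Cdc25a had a shared start summit. Among members of known strand, only Mcmbp and Cdc37 had a start summit with a higher replicate 1 score. The strand of Cdk17, which had the highest replicate 1 score at an end, was not known. Cdc25A activates Cdk2 and Cdk1. Its summit, at position 109875248 of chromosome 9 and 331 bp before the start, scored 22.2 and 49.6, and a body summit 1033 bp from the far end scored 10.6 and 45.6. Cdc14a had 2 body summits (21.1 and 21.2, and 9.50 and 12.7). Cdc25b had a shared summit with very high scores (55.3 and 47.7) 5896 bp outside the gene, but it lay 473 bp from Cenpb, a centromere protein gene. Cdc25c had 1 at 8039 bp (2.31 and 4.52), and Cdc14b had none.

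The anaphase promoting complex, the ubiquitin ligase that ends mitosis, is represented by Cdc16, Cdc23, Cdc26, Cdc27 and its activator Cdc20. None of the 5 had a shared end summit, against 8.94% of all coding genes with one. Cdc26 had a strong body summit 1173 bp past its start (33.1 and 45.4) and a weak summit 1142 bp before it (2.36 and 9.48), the latter inside Prpf4. Cdc16 had 1 summit 3821 bp before the gene (17.0 and 22.9). For Cdc20, Cdc23 and Cdc27 there was none within 20 kb, with 2, 4 and 10 summits in replicate 2.

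Of the other Cdc genes, Cdc37 had a shared summit 300 bp past its start at position 21149634 of chromosome 9 (24.8 and 40.4). Among members of known strand, only Mcmbp had a start summit with a higher replicate 1 score. Cdc34, the gene of a ubiquitin-conjugating enzyme, had a shared summit 850 bp inside the end where transcription stops (6.59 and 11.2) and a replicate 1 summit of score 1.48 before its start. Cdc123, a gene for a translation factor assembly protein, had 1 at 150 bp before its start (6.16 and 7.31), inside Nudt5 and within 1 kb of its end. Cdc5l had 1 in the body (8.34 and 13.4). Cdc20b, Cdc37l1, Cdc40 and Cdc73 had none within 20 kb. Of the replicate 2 summits without a partner at these ends, that of Cdc73 scored 15.6.

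**Figure D4:**
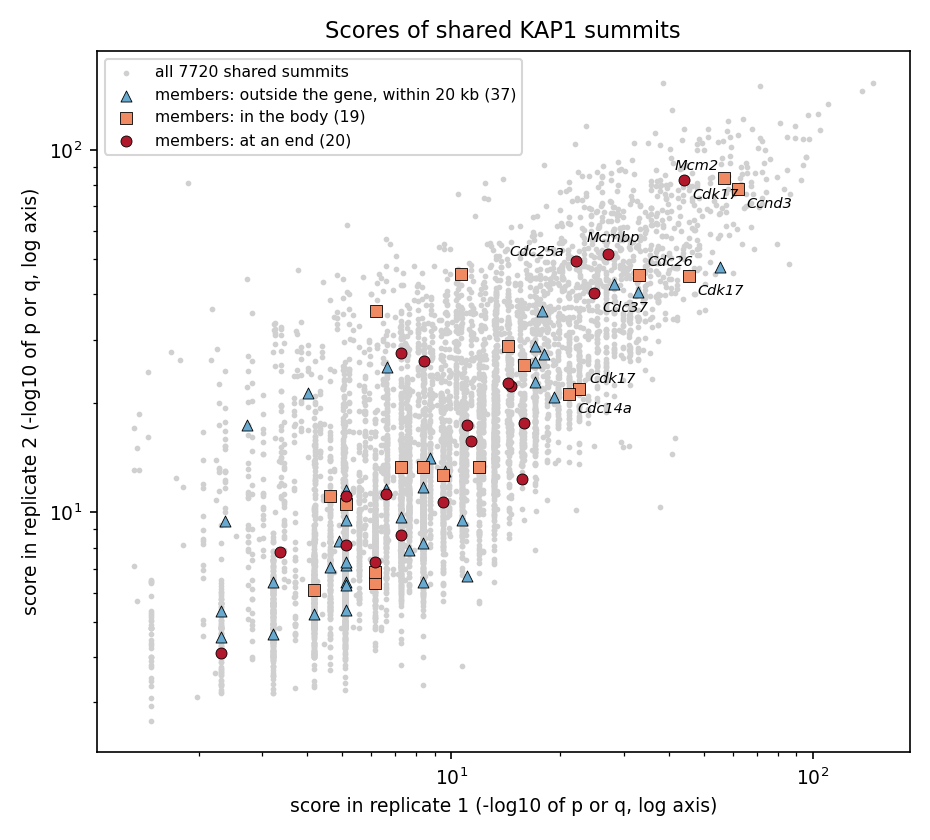
Scores of shared KAP1 summits in replicate 1 (x axis) and replicate 2 (y axis), both on log scales, for all 7720 shared summits in grey and for those at ends (20), in bodies (19) and outside but within 20 kb (37) of members. Labels name end and body summits with replicate 1 scores over 20, among them Ccnd3, Mcm2 and Cdk17. The members' points lie within the grey cloud.

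The 76 shared summits around members belonged to 76 separate positions, so that no summit counted for 2 members. Of the 37 outside a gene and beyond 1 kb, 14 had the member as nearest coding gene, 13 lay within 1 kb of an end of another coding gene and 13 lay inside one. At member ends, 5 of 20 summits were also within 1 kb of an end of another coding gene, against 241 of 1717 over all coding genes. These were the summits of Cdk2, Cdk5, Mcm3ap, Mcm7 and Cdc123. Counting only end summits with no end of another coding gene within 1 kb, 14 of the 82 members had one (17.1%), against 6.79% of all coding genes.

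In all, 42 of the 82 members had no shared summit within 20 kb, against 13584 of all 20665 coding genes. Of the 42, 41 had replicate 2 summits there, against 10344 of the 13584. Every member had a summit of at least 1 of the lists within 20 kb, while 3231 of the 20665 coding genes had none. Replicate 2 had end summits in 15 members that had no shared end summit, against 2959 of all 20665 coding genes. Their scores in members ran from 3.65 at Mcm5 to 15.6 at Cdc73. Replicate 1 had them in Ccna2, Ccnd2 and Cdkn2aip, with scores of 1.48, 3.21 and 3.69.

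**Figure D5:**
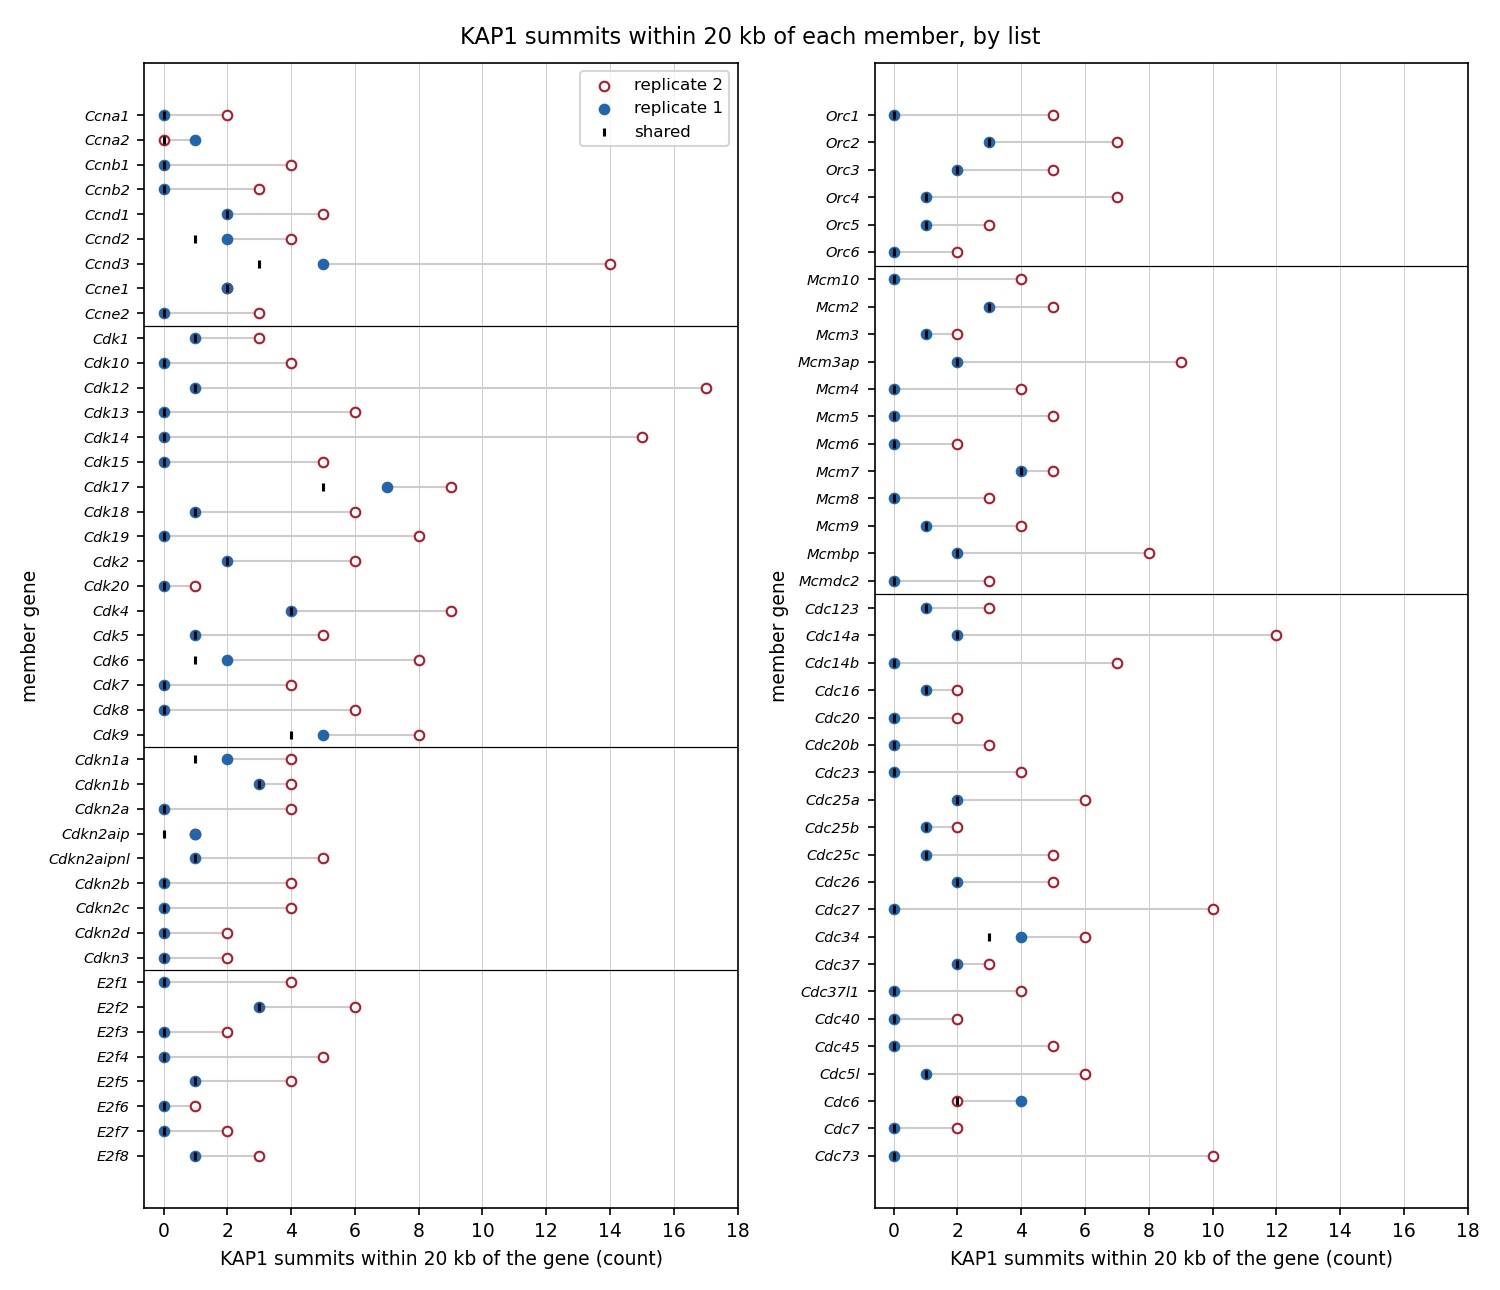
Number of KAP1 summits within 20 kb (x axis) of each of the 82 members (y axis, grouped by family), in replicate 1 (filled circles), replicate 2 (open circles) and shared (black bars). Replicate 2 had more summits than replicate 1 except at Ccna2 and Cdc6, where it had fewer, and at Ccne1 and Cdkn2aip, where the numbers were equal. Cdk12 and Cdk14 had the most in replicate 2, 17 and 15.

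Other genes of the same pathways were counted from a list of 76 symbols (retinoblastoma and DREAM proteins, checkpoint kinases, replication factors, mitotic kinases and subunits of the anaphase promoting complex). A shared end summit was found in 13 of them (17.1%, against 8.94% of all coding genes), a body summit in 10 (13.2%, against 12.9%) and a summit within 20 kb in 41 (53.9%, against 34.3%). Replicate 2 alone had end summits in 31 (40.8%, against 23.2%). The strongest end summit was that of Chek2, a DNA damage checkpoint kinase gene, 994 bp inside its lower end (31.3 and 31.9). Gins4, a subunit gene of the active helicase, had one 270 bp outside (13.4 and 20.7), and Plk1, a mitotic kinase gene, one 11 bp before its start (10.7 and 11.1). The others were Anapc5, Fbxo5, Rfc3, Foxm1, Trp53, Tfdp1, Donson, Fbxw7, Mtbp and Cks2. The summits of Foxm1, Trp53, Donson and Mtbp were also within 1 kb of an end of another coding gene. Replicate 1 scores were lowest at Cks2 (3.21) and Mtbp (3.69).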

How the data were processed

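KAP1 ChIP-seq of 2 samples of expanded mouse regulatory T cells was used through the deposited summit lists, 1 per sample. Libraries kept fragments between 150 and 400 bp, per the labels' protocols. The submitters' processing notes name MACS2 2.2.1, Bowtie2 2.2.9, Picard 2.1.1 and build mm10, without settings, control or threshold. The authors' deposited score is a −log10 value, of either a p-value or a q-value. Read depth is unknown. Genes and promoter sequences came from RefSeq tables of GRCm38.p6. Members with more than 1 annotated start (12) were represented by the outermost in motif counts. Summits were paired and located with Python 3.11.15, numpy 2.4.6 and pandas 2.3.3, tested on simulated data. No test was made: with 1 group, counts of genes are set beside the same counts over all coding genes. The members and lists were chosen with earlier results of these data known. Named are members with a shared summit, members without one, and, of the other cell cycle genes, those with a shared end summit. Alternatives changed the pairing distance, windows, scores, replicates and the reading of the symbol rule.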

Additional observations from a re-analysis of the deposited data

How the results depend on the processing

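The share of members with a shared summit stayed above that of all coding genes in each of the 28 alternatives for counts at ends, in bodies and within 20 kb, and 22 of the 28 counts were within 1.5 times the reported one. With replicate 2 limited to its 8862 highest scores, 10 members had a shared end summit (12.2%, against 4.02% of all), 8 a body summit (9.76%, against 6.37%) and 23 of the 82 one within 20 kb (against 18.7%). Without replicate 2, 22 members had an end summit, 17 a body summit and 42 one within 20 kb. The shares of all coding genes were then 9.84%, 13.8% and 35.9%. Without replicate 1 the counts were 34, 56 and 81, against 23.2%, 56.4% and 84.3% of all coding genes. With scores at or above both medians, 13 of the 19 named members kept an end summit (15.9% of members, against 5.21% of all coding genes); Cdc123, Cdc34, Cdc6, Cdk12, Cdk5 and Orc5 did not. With replicate 2 limited as above, 10 kept it, and Cdkn1a, Cdkn2aipnl and Mcm7 were lost as well. One alternative, chosen after seeing the data, left out end summits near an end of another coding gene. Ends of 500 bp kept 15 (18.3% of members, against 6.18% of all coding genes), without Cdc34, Cdk2, Cdkn1a and Mcmbp. Read with a number required after the prefix, the rule leaves out Mcmbp and Mcmdc2. Then 18 of 80 members had an end summit (22.5%, against 8.94% of all coding genes). No paired analysis was possible because the lists give no comparison between groups. The unknown depth and the unequal lists limit what a missing summit shows.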
